A study of Zea mays with 4 samples.

Results

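The 10 maize genes described here encode 8 enzymes and 2 regulators of anthocyanin synthesis. They were chosen by identifier from the 46430 loci of the count table, by the known role of each gene, with no measured value in the rule. All 10 were found. The enzymes, in the order of their steps, are c2, whp1, chi1, fht1, pr1, a1, a2 and bz1, and the regulators are r1 and pl1.

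Anthocyanins are the red and purple flavonoid pigments of plants. Chalcone synthase commits a phenylpropanoid precursor to the flavonoid route, an isomerase and hydroxylases shape the flavonoid skeleton, and the late enzymes reduce, oxidise and glycosylate it into a coloured pigment. In maize the enzyme genes are known to be activated by pairs of transcription factors, a bHLH protein of the r1/b1 family with a MYB protein of the c1/pl1 family, and pl1 is the family member known for pigment in the plant body rather than the seed. Chilling in the light is known to redden maize seedlings of many lines, but pigment was not measured in the RNA-seq data used here.

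Transcripts were sequenced from entire wild-type seedlings of B73, the inbred line of the maize reference genome, so a single genotype is represented. Seedlings of both conditions grew for 9 days at 25 to 28 °C under 16 h of light and 8 h of dark. Cold seedlings then spent 24 h at 4 °C, and control seedlings stayed under the growth conditions. Both were collected at 10 days of age from 10 plants, and the labels do not say whether each library pools all of them. There were 2 libraries per condition, so values over a condition have n = 2. The labels do not tie replicates to separate cultures of plants, and a p-value here covers no more than the scatter among these libraries, which may be technical.

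The libraries held between 20942576 and 28493929 fragments assigned to genes. Of 23169 genes that passed the filter on low counts, 6256 were higher in cold and 6259 lower by the quasi-likelihood test of edgeR at a Benjamini-Hochberg threshold of 0.05, so that 50.0% of calls were higher. That split was 36.8% higher with library totals alone and 39.8% with upper-quartile scaling. Mitochondrial fragments took 0.134% and 0.112% of the cold libraries, against 0.0767% and 0.0703% of the control libraries, and the part of this difference in the results was not tested. Of 5 named plastid genes of photosynthesis, rbcL had 18.6 and 13.7 CPM of library totals in cold and 15.7 and 15.2 in control, and psaA had 2.28 and 2.05 CPM in cold and 0.983 and 0.843 in control. The others, psbD, psbA and psaB, had between 1 and 15 fragments in a library. In CPM, psbD had 0.620 and 0.334 in cold and 0.281 and 0.253 in control. The psbA values went the other way, at 0.124 and 0.048 in cold and 0.281 and 0.211 in control. Those of psaB overlapped, at 0.0414 and 0.0955 in cold and 0.0702 and 0.0843 in control. Nuclear markers of leaf or root cells carry no names in the table, so the seedling label was not checked further. In whole seedlings, fewer cells of a type and less RNA per cell cannot be told apart.

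All 10 genes passed the low-count filter. In cold, transcripts of c2 and chi1, at the entry to the flavonoid route, rose, the MYB regulator pl1 fell, and the other 7 genes were not called. The 2 genes called higher compare with 27.0% of all genes tested, and the 1 called lower also compares with 27.0%. Their median log2 fold change was 0.18, against -0.03 for all genes tested. The median size of change without regard to direction was 0.50 on the log2 scale, against 0.65 for all genes tested. The share of calls among these genes was therefore not above the background of the whole table.

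Chalcone synthase is encoded by the duplicate genes c2 and whp1. The gene c2 (Zm00001d052673, B73 RefGen_v4 chromosome 4, 196893203 to 196896534, plus strand) had 181 and 384 CPM in the cold libraries and 129 and 143 CPM in the control libraries. CPM scales fragments to a common library size, here with TMM factors, which even out library composition. Both cold libraries lay above both control libraries, and the cold libraries lay far apart from each other. The means were 282 ± 143 CPM in cold and 136 ± 9.80 CPM in control (SD, n = 2 each). The rise was 2.08-fold, with a log2 fold change of 1.06 (SE 0.31, edgeR adjusted p = 0.0219), larger than that of 84.9% of the genes tested. Its size rested on cold replicate 2: the log2 fold change was 0.43 (adjusted p = 0.0231) without that library. The call was lost without control replicate 2 (1.12, adjusted p = 0.0667) and with DESeq2 (1.08, adjusted p = 0.0824).

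The second chalcone synthase gene, whp1 (Zm00001d007403, chromosome 2, 230953342 to 230957070, minus strand), was far less abundant. It had 3.64 and 15.9 CPM in cold and 2.80 and 6.10 CPM in control. The cold value of replicate 1 lay between the control values, so the conditions overlapped. The log2 fold change was 1.12, close to that of c2, but with a 95% interval of -0.35 to 2.60 it was not called (adjusted p = 0.168). With cold replicate 1 left out it was called higher, at 1.85 (adjusted p = 0.000459). Leaving out cold replicate 2 instead gave -0.27 (adjusted p = 0.634). It was called without a low-count filter, at 1.12 (adjusted p = 0.00166).

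The c2 gene supplied nearly all chalcone synthase fragments in both conditions. Its share of c2 and whp1 fragments together was 98.0% and 96.0% in the cold libraries and 97.9% and 95.9% in the control libraries. The exact (Clopper-Pearson) 95% intervals were 97.6 to 98.4% and 95.6 to 96.5% in cold, and 97.4 to 98.3% and 95.2 to 96.5% in control. The share therefore differed more between the libraries of a condition than between conditions. Per kilobase of exon, the mean share was 96.5 ± 1.64% in cold and 96.4 ± 1.61% in control (SD, n = 2 each), a difference of 0.16 percentage points. No test was made, because the smallest two-sided p of an exact permutation test of 2 against 2 libraries is 0.333. Reads that map to both copies were left out of the counts, so the levels of these duplicates are uncertain, and intervals cover counting error only.

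Chalcone isomerase, the next step, closes the chalcone ring. Its gene chi1 (Zm00001d034635, chromosome 1, 298580972 to 298582430, minus strand) had 66.3 and 80.6 CPM in cold and 51.8 and 59.5 CPM in control. The cold libraries were both above the control libraries, by a narrow margin. The rise was 1.32-fold (log2 fold change 0.40, SE 0.14, adjusted p = 0.0456), close to the threshold of 0.05. The call was lost when cold replicate 2 was left out (0.27, adjusted p = 0.112). Leaving out control replicate 1 (0.32, adjusted p = 0.278) or control replicate 2 (0.50, adjusted p = 0.110) also ended it. Scaling by library totals alone gave 0.18 (adjusted p = 0.309) and by upper-quartile factors 0.24 (adjusted p = 0.183). These scalings also moved the median of all genes, to -0.24 and -0.19, and relative to that median chi1 lay at 0.42 and 0.43, against 0.43 with TMM factors. A change of scaling shifts every gene by nearly the same amount. The likeness of these relative values was therefore fixed in advance and does not bear on whether chi1 changed.

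Flavanone 3-hydroxylase is encoded by fht1 (Zm00001d001960, chromosome 2, 3559183 to 3560951, plus strand). It had 67.5 and 76.5 CPM in cold and 83.2 and 81.9 CPM in control. Both cold libraries were below both control libraries, but the log2 fold change of -0.20 (SE 0.12, 95% interval -0.48 to 0.08) was not called (adjusted p = 0.201). The interval is the narrowest among the 10 genes, and its lower end corresponds to 0.717 times the control level. With library totals alone fht1 was called lower (-0.41, adjusted p = 0.0211), as it was with upper-quartile factors (-0.36, adjusted p = 0.0348). Relative to the median of all genes it lay at -0.17 with TMM factors, library totals and upper-quartile factors alike, which, as for chi1, was fixed in advance.

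The gene pr1 (Zm00001d017077, chromosome 5, 184494219 to 184496209, minus strand) encodes flavonoid 3'-hydroxylase, which adds the hydroxyl group that separates cyanidin from pelargonidin pigments. It had 10.0 and 29.6 CPM in cold and 15.7 and 16.7 CPM in control. The cold libraries lay on opposite sides of control: 1 was below both control libraries and the other above both. With all libraries the log2 fold change was 0.28 (95% interval -0.68 to 1.24, adjusted p = 0.589). Either cold library alone against control was called, in opposite directions: cold replicate 2 gave 0.87 (adjusted p = 0.000205) and cold replicate 1 gave -0.68 (adjusted p = 0.00977). A single library is assumed there to vary like the others.

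Both dihydroflavonol 4-reductase, encoded by a1, and anthocyanidin synthase, encoded by a2, work on the way to the coloured aglycone. The a1 gene (Zm00001d044122, chromosome 3, 219867858 to 219869656, minus strand) had 4.54 and 14.9 CPM in cold and 6.30 and 11.9 CPM in control. Its cold values enclosed the control values, as those of pr1 did. The log2 fold change was 0.09 (95% interval -1.11 to 1.28, adjusted p = 0.901), and it was negative, at -0.16 and -0.08, with library totals and upper-quartile factors. For a2 (Zm00001d014914, chromosome 5, 68025894 to 68027081, plus strand) the values were 1.41 and 6.47 CPM in cold and 2.33 and 3.80 CPM in control. Here too the cold libraries lay on either side of control. The log2 fold change of a2 was 0.34 (95% interval -1.08 to 1.77, adjusted p = 0.660). With cold replicate 2 as the only cold library a2 reached 1.08 (adjusted p = 0.0157), and with cold replicate 1 alone it was at -1.10 (adjusted p = 0.0663). The intervals of a1 and a2 each contain a 2-fold change in either direction, so these libraries do not show that the levels were alike.

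The last enzyme, the flavonoid 3-O-glucosyltransferase encoded by bz1, attaches the sugar that stabilises the pigment. The bz1 gene (Zm00001d045055, chromosome 9, 11218973 to 11220493, minus strand) had 2.01 and 2.09 CPM in cold, from 47 and 39 fragments, and 2.43 and 3.84 CPM in control, from 73 and 100 fragments. Both cold values were below both control values. The log2 fold change was -0.61 (SE 0.33, 95% interval -1.38 to 0.16) and was not called (adjusted p = 0.153). Unlike in the genes before it, the control libraries of bz1 differed more than the cold ones, and its log2 fold change was -0.26 (adjusted p = 0.661) when control replicate 2 was left out.

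Both regulators were lower in each cold library than in either control library. The R2R3 MYB gene pl1 (Zm00001d037118, chromosome 6, 112978409 to 112979673, plus strand) had 2.96 and 3.58 CPM in cold and 7.10 and 4.91 CPM in control. It fell, by 0.88 on the log2 scale (SE 0.27, adjusted p = 0.0270), to 0.542 times its control level. Leaving out control replicate 1 (-0.58, adjusted p = 0.233) or cold replicate 1 (-0.75, adjusted p = 0.0626) ended the call, as did DESeq2 (-0.86, adjusted p = 0.0543). The bHLH gene r1 (Zm00001d026147, chromosome 10, 139780968 to 139790276, plus strand) had 2.61 and 3.53 CPM in cold and 5.17 and 4.38 CPM in control. Its log2 fold change was -0.64 (SE 0.27, 95% interval -1.26 to -0.02), with an unadjusted p of 0.0438 and an adjusted p of 0.0746, so it was not called. It was called with library totals alone (-0.86, adjusted p = 0.0237), with upper-quartile factors (-0.80, adjusted p = 0.0333) and without cold replicate 2 (-0.86, adjusted p = 0.0421). Between 61 and 213 fragments per library stood behind the regulator values. Maize holds close relatives of both regulators, and reads shared with a relative were left out of the counts.

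**Figure D1:**
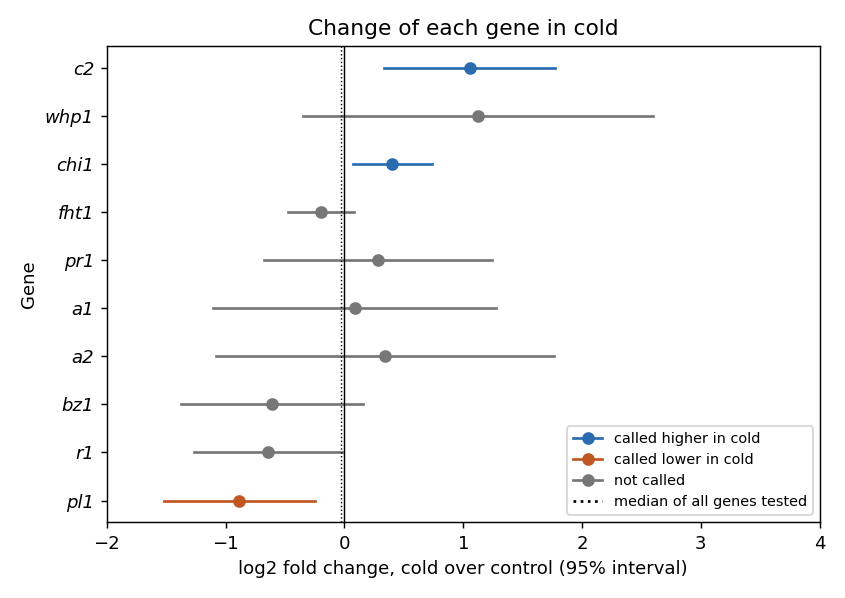
Log2 fold change of each gene, cold over control, with its 95% interval from the edgeR fit; the dotted line is the median of all genes tested (-0.03). Only the intervals of c2 and chi1 (above 0) and of r1 and pl1 (below 0) leave out 0, and r1 was not called after adjustment.

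The libraries of the 2 conditions did not overlap in 6 of the 10 genes. Both cold libraries were above control in c2 and chi1, which compares with 38.2% of all genes tested, and both were below control in fht1, bz1, r1 and pl1, which compares with 41.2%. The genes that overlapped were whp1, pr1, a1 and a2.

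Levels between genes were compared per kilobase of exon, as CPM divided by exon length in kilobases (FPKM). The early enzyme genes c2, chi1 and fht1 stood far above the other genes in every library. In cold, c2 averaged 155 ± 78.7 FPKM, chi1 65.4 ± 9.03 and fht1 45.5 ± 3.99, and in control c2 averaged 74.6 ± 5.38 FPKM, chi1 49.5 ± 4.81 and fht1 52.2 ± 0.608 (SD, n = 2 each). The c2 level was above that of 97.5% of the genes tested in cold and 94.8% in control. After these, pr1 had the next level, with 10.9 ± 7.63 FPKM in cold and 8.93 ± 0.372 FPKM in control. The duplicate whp1 had 2.33 and 10.2 FPKM in cold and 1.80 and 3.91 FPKM in control. The late genes a1, a2 and bz1 averaged 6.72, 3.32 and 1.35 FPKM in cold, and 6.29, 2.58 and 2.06 FPKM in control. Together they made up 2.64% and 4.57% of the summed enzyme FPKM in the cold libraries and 4.22% and 6.63% in the control libraries, so the ranges of the conditions overlapped.

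**Figure D2:**
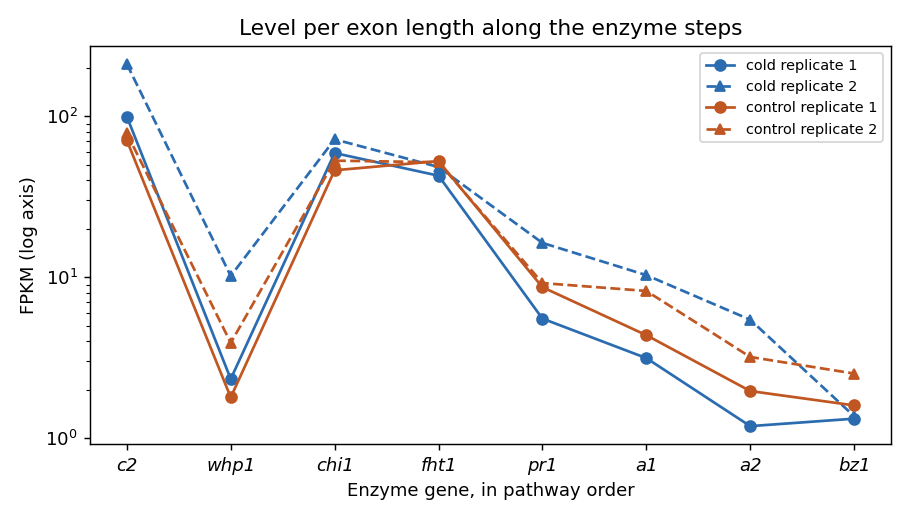
FPKM (log axis) of the 8 enzyme genes in pathway order, with a line for each library, cold in blue and control in orange. Every line drops from c2 to whp1, and from fht1 through pr1 to the late genes, and bz1 lies between 1.32 and 2.52 FPKM in all libraries.

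The order of mean levels in cold ran c2, chi1, fht1, pr1, a1, whp1, a2, pl1, bz1, r1, and the libraries of each neighbouring pair were separate except from pr1 to a1, a1 to whp1, whp1 to a2 and a2 to pl1. The order in control ran c2, fht1, chi1, pr1, a1, pl1, whp1, a2, bz1, r1, and the neighbours fht1 and chi1, a1 and pl1, and each successive pair from whp1 to r1 overlapped. By means the places of chi1 and fht1 were exchanged, with chi1 above fht1 in both cold libraries. In control chi1 was also above fht1 in replicate 2 (52.9 and 51.7 FPKM) and below it only in replicate 1 (46.1 and 52.6 FPKM). The exchange of means thus rested on control replicate 1. Among the regulators pl1 was above r1 per kilobase in each library, at 3.11 and 2.79 times its level in cold and 3.78 and 3.08 times in control.

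The share of c2 in the pathway was larger in both cold libraries. Summed FPKM of the 8 enzymes were 215 and 374 in cold and 188 and 210 in control, and c2 made up 46.3% and 56.3% of the sum in cold and 37.7% and 37.3% in control. The conditions did not overlap in either value. The fht1 level was 0.429 and 0.229 times that of c2 in cold and 0.743 and 0.660 times in control. These values follow from the c2 and fht1 levels given above and were not tested.

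Several enzyme genes differed more between the cold libraries than between conditions, a pattern and thresholds chosen after the values were seen. CPM in cold replicate 2 was 4.58 times that in replicate 1 for a2, 4.36 times for whp1, 3.27 times for a1, 2.95 times for pr1 and 2.12 times for c2. A ratio of at least 2 was thus found in 5 of the 10 genes, and in 2.78% of all genes tested. The other 5 genes, chi1, fht1, bz1, r1 and pl1, had ratios between 1.04 and 1.35, within the 5th and 95th percentiles of all genes tested (0.572 and 1.71). In control, replicate 2 was 2.18 times replicate 1 for whp1, 1.88 times for a1, 1.63 times for a2 and 1.58 times for bz1. A ratio of at least 1.5 was found in these 4 genes and in 6.73% of the genes tested. For r1 and pl1 the ratios were 1.35 and 1.21 in cold and 0.847 and 0.692 in control, and the part of the regulators in the enzyme ratios was not tested. The genes whp1, a1 and a2 were at least 1.2 times higher in replicate 2 of both conditions, a criterion met by 3 of the 10 genes and 4.81% of those tested. Genes with few fragments vary more, and no comparison at matched abundance was made.

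**Figure D3:**
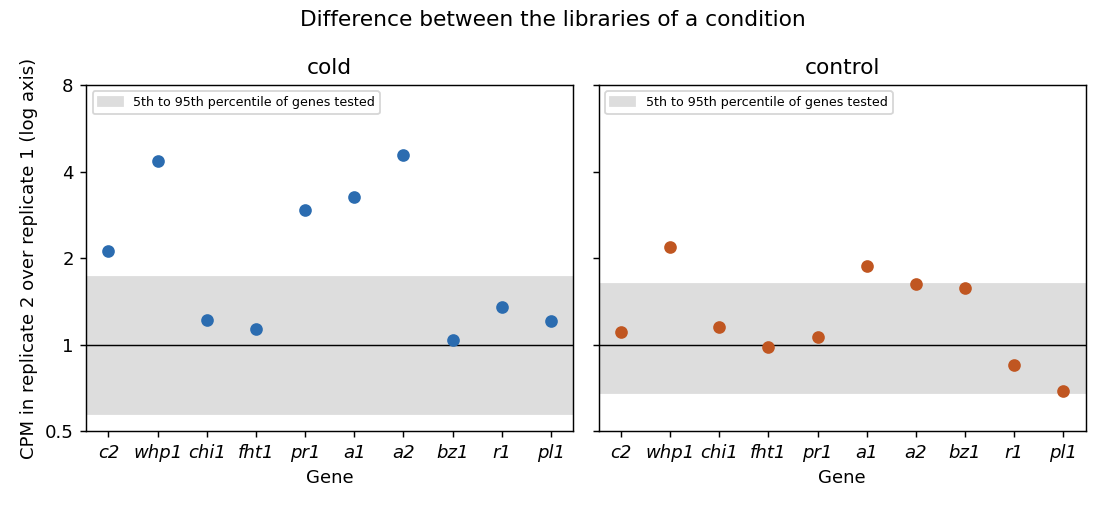
Ratio of CPM in replicate 2 to replicate 1 for each gene (log axis), in cold on the left and control on the right; the grey band runs between the 5th and 95th percentiles of genes tested. In cold c2, whp1, pr1, a1 and a2 lie above the band, between 2.12 and 4.58, while in control whp1 (2.18) and a1 (1.88) lie above it.

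Leaving out a library changed which of these genes were called. Without cold replicate 1 the genes c2, whp1, chi1, pr1 and a2 were called higher and 0 lower by edgeR (1 lower at an unadjusted p under 0.05), against 26.7% and 26.9% of all genes tested, and a1 had a log2 fold change of 0.72 (adjusted p = 0.0509). Without cold replicate 2 only c2 was called higher, and pr1, r1 and pl1 were called lower, against 26.3% and 25.2% of all genes tested. Of the 10 genes, chi1, fht1, bz1, r1, pl1 and c2 kept the sign of their change whichever library was left out, and whp1, pr1, a1 and a2 did not.

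**Figure D4:**
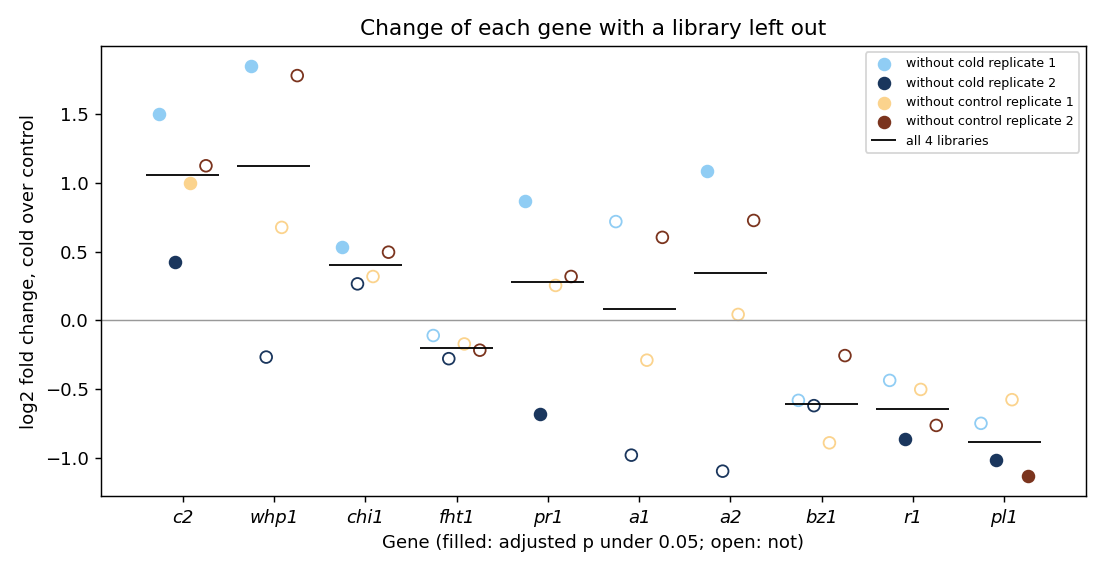
Log2 fold change of each gene, cold over control, with each library left out in turn; filled points have an adjusted p under 0.05, open points do not, and black lines show the value with all 4 libraries. The points of whp1, pr1, a1 and a2 lie on both sides of 0, from -1.10 for a2 without cold replicate 2 to 1.85 for whp1 without cold replicate 1.

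The genes lie on 8 chromosomes in B73 RefGen_v4, with fht1 and whp1 far apart on chromosome 2 and a2 and pr1 far apart on chromosome 5. None overlaps another gene of the table. Only a2, bz1 and pl1 have a listed gene within 5 kb, and only that of a2 had enough fragments to be tested. This gene, Zm00001d014915, lies 550 bases beyond the end of a2 on the opposite strand, so that their ends face each other. It had 22 and 11 fragments in cold and 100 and 93 in control and was lower in cold (log2 fold change -2.15, SE 0.36, adjusted p = 0.00194). Strand was not used in counting, so reads running past the end of either gene cannot be told apart from reads of the other. The neighbours Zm00001d045056 of bz1 and Zm00001d037119 of pl1 had at most 1 fragment in a library.

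The genes most like c2 over the 4 libraries were found by the Euclidean distance between centred log2(CPM + 0.5) values, outside the 10 genes. Zm00001d017215 (chromosome 5, 189149122 to 189152796, minus strand) was nearest, at a distance of 0.090, with 16.7 and 34.1 CPM in cold and 12.1 and 13.4 CPM in control. The next was Zm00001d033093 (chromosome 1, 250113063 to 250114145, minus strand), at 0.112, with 0.514 and 1.55 CPM in cold and 0.200 and 0.345 CPM in control. Values this low are damped by the added 0.5, so its nearness to c2 depends in part on that setting. Its log2 fold change in the edgeR fit was 1.89, against 1.06 for c2. For both, as for c2, cold replicate 2 was the highest library, which follows from their choice by likeness to c2. A set of 4 libraries is small for a likeness of this kind.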

How the data were processed

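The authors deposited 1 table of raw counts of fragments per gene for the 4 libraries, not pooled, made with featureCounts 1.6.4 and release 43 of the annotation of B73 RefGen_v4, per the file headers. Its command counts read pairs, ignores strand and does not set the options that keep reads mapping to several places or overlapping several genes, so such reads are left out. The submitters' processing notes also name fastp and HISAT2, without versions. The exon lengths deposited by the authors equal the merged exons of each of the 46430 loci.

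Genes were filtered with filterByExpr (minimum count 10, minimum total 15), leaving 23169. Libraries were scaled by TMM (factors 0.966 and 0.893 in cold, 1.05 and 1.10 in control) over the genes kept. Cold was compared with control by the two-sided quasi-likelihood F test of edgeR 4.0.16 (R 4.3.3), with condition as the only term and Benjamini-Hochberg adjustment over all genes tested. The script was tested on simulated data. Standard errors are the log2 fold change divided by the square root of F, and 95% intervals use the residual and prior degrees of freedom. The alternatives tried were scaling by RLE factors, by upper quartiles or by totals alone, TMM without the 20 most abundant genes, DESeq2 1.42.0, no filter or 5 CPM in 2 libraries, a replicate block, and each library left out.

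The rule for the genes uses their known roles and no measured value, but the genes and lists were proposed with earlier results of these data known. All 10 genes are named, with neighbours within 5 kb and the 2 genes nearest in profile to the gene with the smallest adjusted p. Gene names are those given with the selection. In the RefSeq gene table of another build (Zm-B73-REFERENCE-NAM-5.0), 9 of the 10 names have an entry, and each of the 9 has one on the same chromosome. The name without an entry is pr1, so its identity was not checked in this way, and a2 has 2 entries. That table links 0 of 44146 nuclear identifiers, so 9 further pathway genes (c1, b1, bz2, pac1, p1, a3, in1, mrp3 and fls1) were not analysed here.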

Additional observations from a re-analysis of the deposited data

How the results depend on the processing

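Of these genes 2 were called higher and 1 lower. DESeq2 called 1 higher (chi1) and 0 lower, with 1 lower at an unadjusted p under 0.05, against 22.5% and 19.6% of all genes it tested. Upper-quartile factors and library totals each called 1 higher (c2) and 3 lower (fht1, r1 and pl1), against 22.4% and 33.9% of all genes with upper-quartile factors and 20.6% and 35.3% with library totals. With a library left out, edgeR called 0 to 5 higher (1 to 6 at an unadjusted p under 0.05) and 0 to 3 lower (1 to 6 unadjusted). It called 0 higher without control replicate 2, and 0 lower without cold replicate 1 or control replicate 1. Over all genes 4440 to 6341 were then called higher and 3978 to 6397 lower, which is 18.6 to 26.7% and 16.7 to 26.9% of the genes tested, the fewest in both directions without control replicate 2. For pr1 the log2 fold change lay between -0.68 and 0.87, with the negative value when cold replicate 2 was left out, and that of whp1 was called higher without a low-count filter. The cause of these differences was not tested. The difference in c2 share lay between -0.995 and 1.32 percentage points. With at least 5 CPM in 2 libraries required, 7 of the 10 genes could be tested and the same 3 were called. Of all genes tested there, 30.6% were called higher and 29.6% lower. Scaling by RLE factors, or by TMM without the 20 most abundant genes, also called these 3. The shares of all genes called higher and lower were 28.0% and 25.8% with RLE factors. They were 27.0% and 27.0% with TMM without the 20 most abundant genes.

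The replicate numbers are not said to mark a shared batch, so same-numbered libraries were not taken as pairs. Their deviations correlated at -0.087 across all genes tested. A value over all genes cannot decide whether the genes described here shared a replicate effect. With a replicate block 5829 genes were called higher and 5808 lower, 25.2% and 25.1% of those tested, and of the genes described 3 were called higher and 1 lower. The added call was whp1 at 0.92 (adjusted p = 0.0274).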
